A study of Mus musculus with 14 samples.

Results

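Genes of DNA replication were followed across sorted fractions of FDCPmix, a mouse bone marrow-derived progenitor line that grows in interleukin-3 and gives rise to blood cells of several lineages. The set of 42 genes covers the proteins that choose and open replication origins, copy both strands and supply deoxynucleotides. Members were found through the transcript accession of each probe, which gave 46 probes of 38 genes. Orc1, Gins1, Gins2 and Rfc3 had no probe named in this way and were not analysed here. The 38 measured genes stand among 29240 genes tested, of which 15732 have a symbol.

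RNA was measured on 14 single-colour Agilent arrays on 4 slides. Cells came from maintenance culture in medium with 20% horse serum and 2% WEHI conditioned medium as the source of interleukin-3, were sorted on surface Kit, Gr1 and Sca1, and gave 150 ng of total RNA per labelling. The groups were Gr1+ cells (3 arrays), Kit-Gr1- cells (3), Kit+Gr1-Sca1hi cells (3), Kit+Gr1-Sca1lo cells (3) and unfractionated cells (2), all of this 1 line with no treatment named in the labels, and the study design calls them biological replicates. Both Kit+Gr1- fractions together are called Kit+Gr1- cells and served as the comparison group for the other 2 fractions.

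On 4 arrays (Gr1+ 3, Sca1hi 3, Sca1lo 3 and unfractionated 1) the spread of signal was compressed, with an interquartile range of the log2 signal of 1.78 to 3.42, against 4.17 to 4.92 on the other 10. These 4 were left out by a minimum of 4. The kept arrays were 2 of Gr1+, 3 of Kit-Gr1-, 2 of Sca1hi, 2 of Sca1lo and 1 of unfractionated cells, with 79.5% to 89.4% of spots well above background. Every measured member was well above background on all 10. A level is the log2 processed signal relative to the 75th percentile of its array, and a level of 1 probe is never set against that of another. Fractions were compared with limma, with the slide as a block, and a call means a p under 0.05 after Benjamini-Hochberg adjustment over all genes tested.

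The sorting antigens were read first. Kit lay at 0.43 and 0.97 in Gr1+ cells, -1.62, -1.84 and -2.04 in Kit-Gr1- cells and 0.35 to 0.76 in Kit+Gr1- cells. It fell by 2.37 ± 0.15 (log2, SE) in Kit-Gr1- against Kit+Gr1- cells (limma adjusted p = 0.00098), while Gr1+ cells differed by 0.07 ± 0.18 (adjusted p = 0.854). The label of the Gr1+ fraction names no Kit gate. Ly6a, which encodes Sca1, lay at -0.54 and 0.16 in Sca1hi cells and -2.96 and -2.38 in Sca1lo cells (2.39 ± 0.18, adjusted p = 0.0531), and at 2.57 and 3.05 in Gr1+ cells. Of the 10 neutrophil genes measured, 10 rose in Gr1+ against Kit+Gr1- cells, and their summed linear signal relative to the 75th percentile was 1110 to 1695 in Gr1+ cells, 5.78 to 70.5 in Kit-Gr1- cells and 26.4 to 190.3 in Kit+Gr1- cells. Of 9 red cell genes, 6 rose in Kit-Gr1- against Kit+Gr1- cells, with a summed signal of 310.4 to 403.6 in Kit-Gr1- cells and 180.8 to 271.1 in Kit+Gr1- cells.

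In each S phase a cell copies its genome once. The origin recognition complex marks origins, Cdc6 and Cdt1 load the MCM2-7 helicase onto them, and Cdc45 with the GINS complex turns that helicase on. Polymerase alpha with its primase starts each strand, polymerases epsilon and delta extend them on the sliding clamp PCNA, and Fen1 and DNA ligase I join the lagging-strand fragments. Many of these genes are transcribed under E2F factors as cells pass from G1 into S phase, and their transcripts decline when blood precursors leave the cell cycle during terminal maturation.

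Promoters were searched for E2F-like octamers because E2F control is the best known feature these genes have in common. The RefSeq windows (build GRCm38.p6) run from 250 bases before to 50 bases after the annotated start, and 33 of the 38 measured members had one. The octamers TTTCCCGC, TTTGGCGC, TTTCGCGC and TTTGCCGC were sought on both strands and can overlap each other on opposite strands. They stood in 12 of the 33 members (36.4%), against 3.76% of 12601 tested genes with a window and 2.6% of all 27025 genes with a window. A gene with several windows counted once, if any held a match. In the 250 bases before the start alone the shares were 21.2% of members and 3.08% of tested genes. The stretches before the start are shown with the octamers in capitals, each 5′ to 3′ along the strand of its gene.
Orc3, chr4:34614965-34614994, minus strand: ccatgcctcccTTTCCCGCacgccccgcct
Cdc6, chr11:98908002-98908031, plus strand: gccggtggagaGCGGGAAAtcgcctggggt
Mcm5, chr8:75109347-75109376, plus strand: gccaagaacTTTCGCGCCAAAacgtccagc
Mcm6, chr1:128359795-128359824, minus strand: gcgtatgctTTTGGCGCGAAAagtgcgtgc
Mcm6, chr1:128359734-128359763, minus strand: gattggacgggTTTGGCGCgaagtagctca
Mcm7, chr5:138172030-138172059, minus strand: aatttcgaaccGCGGGAAAcagggtgtcca
Gins3, chr8:95633507-95633536, plus strand: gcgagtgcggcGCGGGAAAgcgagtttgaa
Pola1, chrX:93632275-93632304, minus strand: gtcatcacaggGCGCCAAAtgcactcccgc

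The Mcm5 stretch and the first Mcm6 stretch each hold 2 octamers on opposite strands that overlap. Counted from the start, the last capital lies at -34 in Orc3 and Gins3, -131 in Cdc6 and Pola1, -142 in Mcm5, -99 and -40 in Mcm6 and -158 in Mcm7. In Cdt1, Mcm3, Pold1, Pole2 and Lig1 an octamer lay after the start, and Mcm7 had a further one there. The more frequent letters CCAAT, on both strands, stood in 60.6% of members and 42.7% of tested genes, and GGGCGG in 75.8% and 56.6%. A match describes these letters in the window and says nothing of binding.

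In Gr1+ cells, transcripts of the replication machinery were lower throughout. Of the 38 measured genes, 29 fell against Kit+Gr1- cells and none rose, and the other 9 also lay below 0 without passing the test, so that all 38 differences were below 0 (50.3% of all genes). Over all genes tested, 14.4% were called lower and 9.08% higher. The median difference of the members was -0.80 on the log2 scale, a 1.74-fold lower signal, and single genes ranged from -1.37 to -0.10, while the median over all genes was -0.00. The 2 Gr1+ arrays lay below all 4 Kit+Gr1- arrays for 32 members, a pattern found in 19.4% of all genes. Within slides, 36 of 38 members were lower in Gr1+ cells on both slides that held the pair (39.6% of all genes), with medians of -0.93 on slide 1 and -0.61 on slide 2. In sorted bulk cells, fewer cells of a type and less RNA per cell cannot be told apart.

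**Figure D1:**
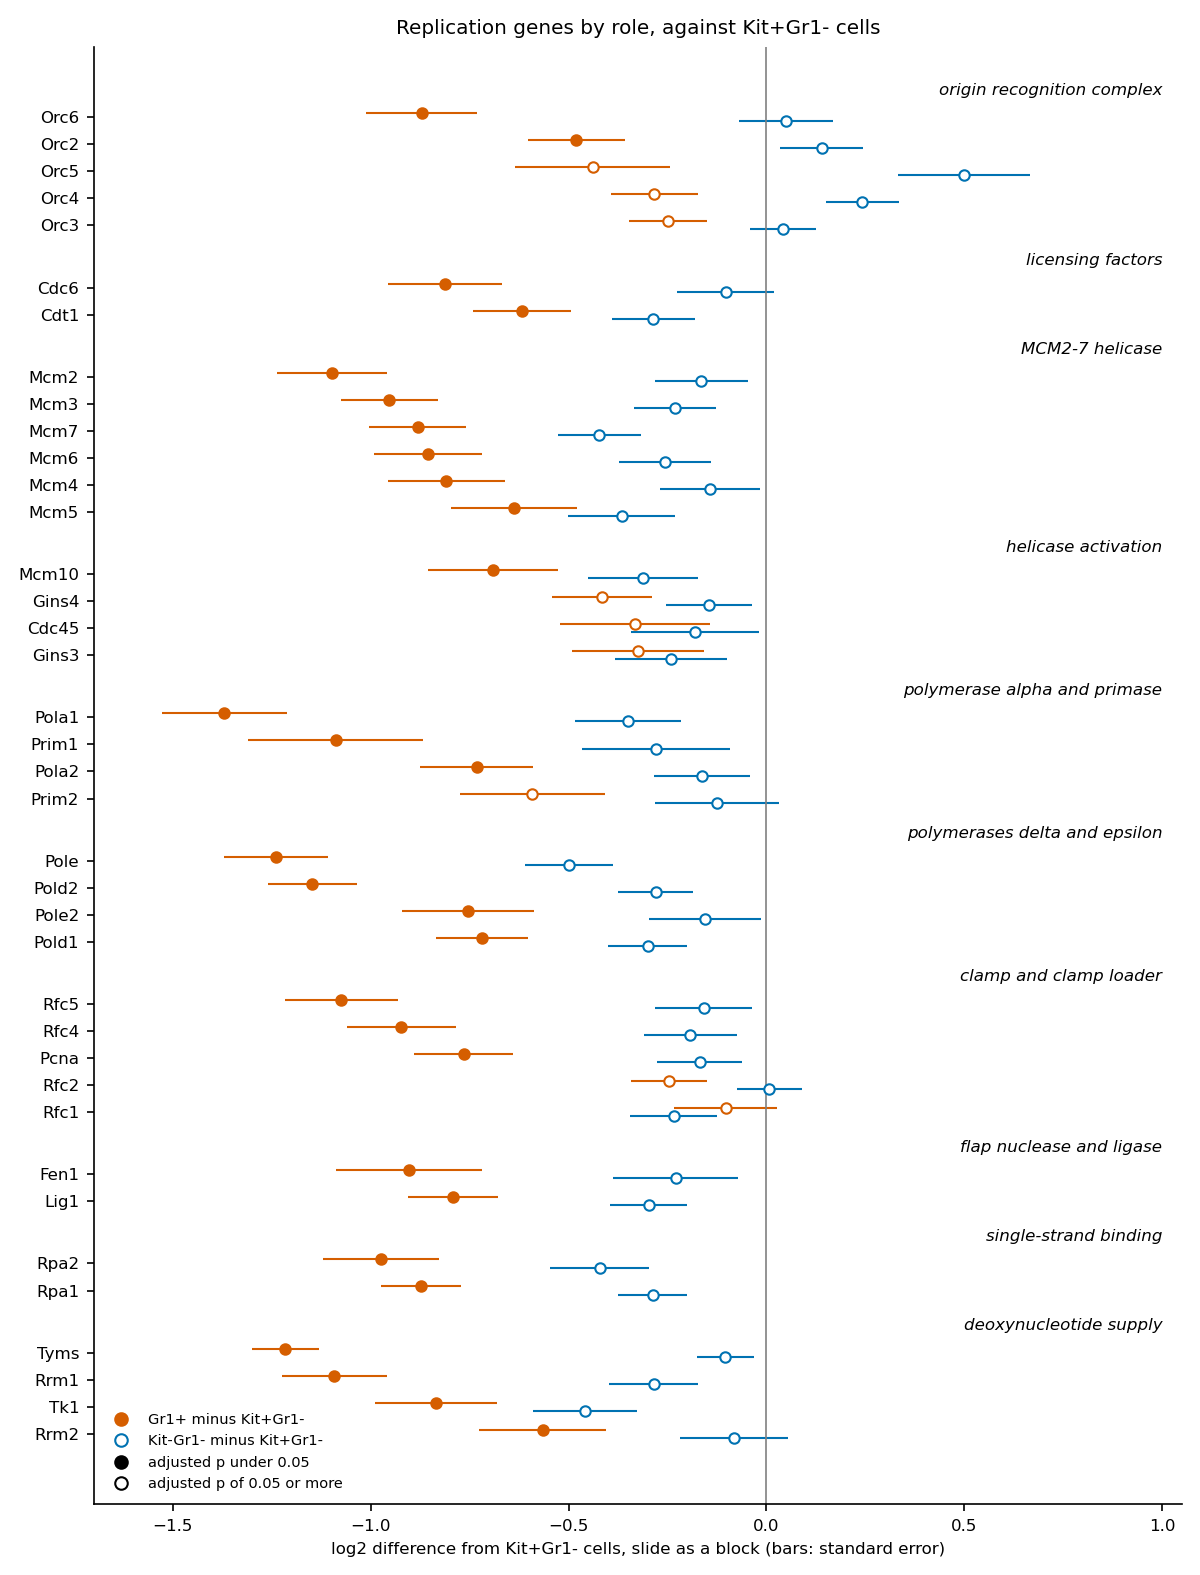
Log2 difference (x axis) of each of the 38 measured replication genes from Kit+Gr1- cells, grouped by role, for Gr1+ cells (orange) and Kit-Gr1- cells (blue); bars are standard errors and filled points passed an adjusted p under 0.05. All 38 orange points lie below 0 and 29 are filled, while no blue point is filled and the 5 origin recognition genes lie above 0.

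In the origin recognition complex, 2 of 5 measured subunits fell in Gr1+ cells, with a median of -0.44. Orc6, the smallest subunit, lay at 2.45 and 2.78 in Gr1+ cells, at 3.68, 3.50 and 3.51 in Kit-Gr1- cells and at 3.23, 3.56, 3.61 and 3.59 in Kit+Gr1- cells (here and throughout, Sca1hi 1 and 2, then Sca1lo 1 and 2). Both Gr1+ arrays were below every other kept sorted array, and the difference from Kit+Gr1- cells was -0.87 ± 0.14 (limma adjusted p = 0.00415). Orc2 fell by 0.48 ± 0.12 (adjusted p = 0.0285). Orc3, Orc4 and Orc5 did not pass, at -0.25, -0.28 and -0.44.

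Both licensing factors fell in Gr1+ cells. Cdc6, the ATPase that recruits the helicase to origins, lay at -0.91 and -0.14 in Gr1+ cells, at 0.09, 0.33 and 0.33 in Kit-Gr1- cells and at -0.14, 0.48, 0.01 and 0.71 in Kit+Gr1- cells. The second Gr1+ array and the first Sca1hi array were nearly level, and within slide 1 and slide 2 the Gr1+ array was lower by the same amount (-0.85 and -0.85). The fitted difference was -0.81 ± 0.14 (adjusted p = 0.00621). Cdt1, its partner in loading, fell by 0.62 ± 0.12 (adjusted p = 0.0106).

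Every subunit of the MCM2-7 helicase, the ring that unwinds the template, was lower. All 6 subunit genes fell in Gr1+ cells, most in Mcm2 and least in Mcm5 (-0.64), with a median of -0.87. Mcm2 lay at 2.51 and 3.10 in Gr1+ cells, at 3.74, 3.80 and 3.73 in Kit-Gr1- cells and at 3.67, 3.95, 3.94 and 3.98 in Kit+Gr1- cells. Both Gr1+ arrays lay below all others while Kit-Gr1- cells fell within the Kit+Gr1- range, and Gr1+ cells differed from Kit+Gr1- cells by -1.1 ± 0.14, or 2.14-fold lower (limma adjusted p = 0.00157). Mcm3 lay at 2.05 and 2.70 in Gr1+ cells, at 3.02, 3.17 and 3.27 in Kit-Gr1- cells and at 3.08, 3.43, 3.25 and 3.54 in Kit+Gr1- cells, with a Gr1+ difference of -0.95 ± 0.12 (adjusted p = 0.0017). Mcm6 lay at 5.65 and 6.18 in Gr1+ cells, at 6.57, 6.51 and 6.53 in Kit-Gr1- cells and at 6.55, 6.78, 6.87 and 6.86 in Kit+Gr1- cells (-0.86 ± 0.14, adjusted p = 0.00402).

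Of the genes that activate the helicase, 1 of 4 measured fell. Mcm10, which acts as origins fire, lay at 2.87 and 3.72 in Gr1+ cells, at 3.67, 3.75 and 3.83 in Kit-Gr1- cells and at 3.68, 4.28, 3.86 and 4.14 in Kit+Gr1- cells. Here the second Gr1+ array overlapped the Kit+Gr1- range, and the difference was -0.69 ± 0.16 (adjusted p = 0.0209). Cdc45 and the GINS subunits Gins3 and Gins4 did not pass, at -0.33 ± 0.19, -0.32 ± 0.17 and -0.42 ± 0.13. Cdc45 differed by -0.58 on slide 1 and by 0.02 on slide 2.

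**Figure D2:**
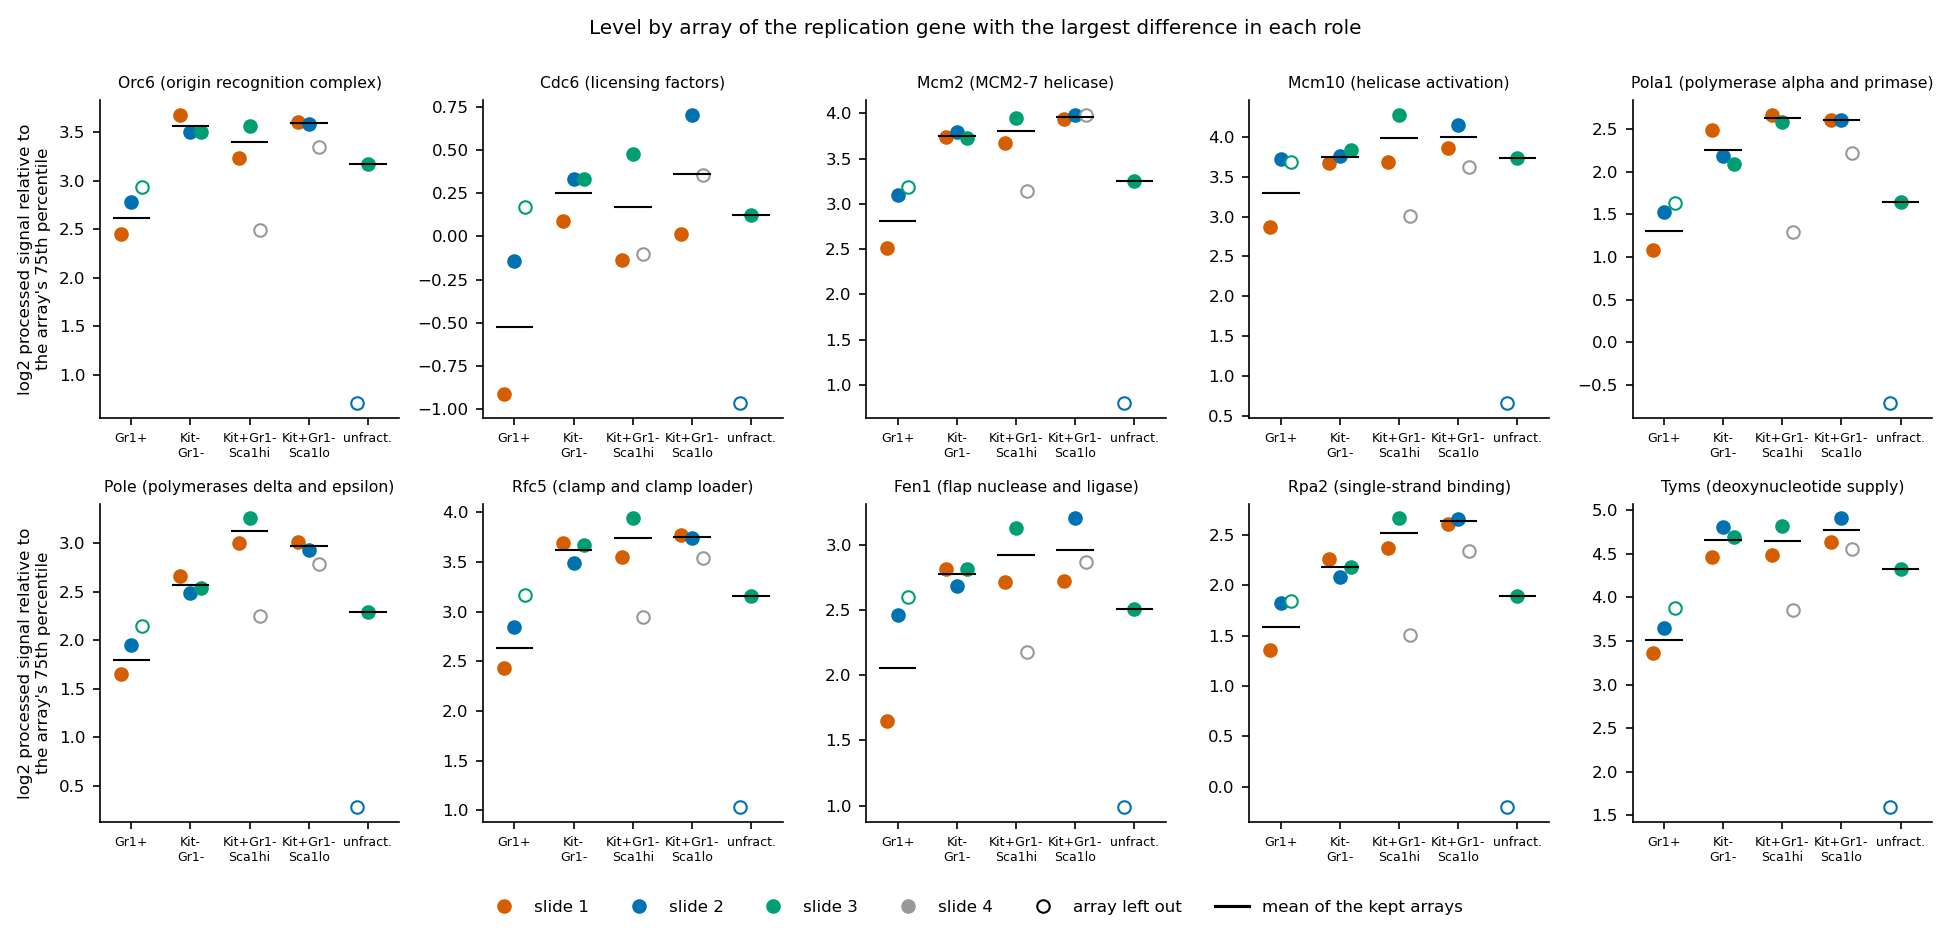
Level of 1 replication gene per role on each array (log2 processed signal relative to the 75th percentile of the array), by group, with points coloured by slide, open circles for the 4 arrays left out and lines at the mean of the kept arrays. Among the kept arrays, the Gr1+ points lie lowest of the sorted fractions in all but Mcm10, where the second Gr1+ array reaches the range of other fractions.

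The largest single differences were in the polymerases. Pola1, the catalytic subunit of polymerase alpha, lay at 1.08 and 1.52 in Gr1+ cells, at 2.50, 2.19 and 2.10 in Kit-Gr1- cells and at 2.68, 2.59, 2.61 and 2.61 in Kit+Gr1- cells. The 4 Kit+Gr1- arrays spanned less than 0.1 log2 units and both Gr1+ arrays were far below them, at -1.37 ± 0.16, or 2.58-fold lower (limma adjusted p = 0.00106). Pola2, its regulatory subunit, and the primase gene Prim1 fell as well, by 0.73 ± 0.14 and 1.09 ± 0.22. Prim2, the large primase subunit, was at -0.59 ± 0.18 and did not pass (adjusted p = 0.0572).

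All 4 measured genes of polymerases delta and epsilon fell, with a median of -0.95. Pole, the catalytic subunit that extends the leading strand, lay at 1.65 and 1.95 in Gr1+ cells, at 2.67, 2.49 and 2.54 in Kit-Gr1- cells and at 3.01, 3.26, 3.02 and 2.94 in Kit+Gr1- cells. The 3 groups formed 3 separate steps with no overlap between neighbours. Gr1+ cells differed from Kit+Gr1- cells by -1.24 ± 0.13, or 2.36-fold lower (adjusted p = 0.000785). Pold2, a subunit of polymerase delta, lay at 0.08 and -0.03 in Gr1+ cells, at 0.79, 0.94 and 1.24 in Kit-Gr1- cells and at 1.14, 1.35, 1.18 and 1.29 in Kit+Gr1- cells. It was 1 of 2 genes of the 4 largest differences with a larger change on slide 2 (-1.32) than on slide 1 (-1.08), and its fitted difference was -1.15 ± 0.11 (adjusted p = 0.00056). Pold1, the catalytic subunit of polymerase delta, lay at 3.13 and 3.61 in Gr1+ cells and at 3.97, 4.33, 4.10 and 4.12 in Kit+Gr1- cells (-0.72 ± 0.12, adjusted p = 0.00436).

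Of the 5 clamp and loader genes measured, 3 fell. Pcna, the sliding clamp, fell by 0.77 ± 0.13, and the loader subunits Rfc4 and Rfc5 fell by 0.92 ± 0.14 and 1.07 ± 0.14. Rfc5 lay at 2.43 and 2.84 in Gr1+ cells, at 3.69, 3.49 and 3.67 in Kit-Gr1- cells and at 3.55, 3.94, 3.77 and 3.74 in Kit+Gr1- cells (limma adjusted p = 0.00194 for Gr1+ against Kit+Gr1- cells). Gr1+ cells stood apart and the other fractions overlapped. Rfc1, the large subunit of the loader, lay at 2.42 and 2.90 in Gr1+ cells, at 2.52, 2.61 and 2.80 in Kit-Gr1- cells and at 2.54, 3.12, 2.82 and 2.81 in Kit+Gr1- cells. The 3 groups overlapped, and the difference was -0.10 ± 0.13 (adjusted p = 0.662). Rfc2 was at -0.25 ± 0.10 (adjusted p = 0.114).

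All 4 measured genes of fragment joining and single-strand binding fell in Gr1+ cells. Fen1, the nuclease that trims lagging-strand flaps, lay at 1.65 and 2.46 in Gr1+ cells, at 2.81, 2.69 and 2.82 in Kit-Gr1- cells and at 2.71, 3.13, 2.72 and 3.20 in Kit+Gr1- cells (-0.90 ± 0.18, adjusted p = 0.0114). Lig1, the ligase, fell by 0.79 ± 0.11. Rpa1 and Rpa2 encode subunits of the protein that coats single-stranded DNA. Rpa1 lay at 2.64 and 2.86 in Gr1+ cells, at 3.27, 3.44 and 3.40 in Kit-Gr1- cells and at 3.47, 3.73, 3.70 and 3.64 in Kit+Gr1- cells, 3 steps without overlap (-0.87 ± 0.10, limma adjusted p = 0.0011). Rpa2 showed the same order, at 1.36 and 1.82 in Gr1+ cells, 2.26, 2.08 and 2.18 in Kit-Gr1- cells and 2.37, 2.66, 2.61 and 2.65 in Kit+Gr1- cells (-0.97 ± 0.15, adjusted p = 0.00321).

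All 4 genes of deoxynucleotide supply fell, with the largest median of any role (-0.96). Tyms, thymidylate synthase, had the smallest p of all members. It lay at 3.36 and 3.65 in Gr1+ cells, at 4.46, 4.81 and 4.69 in Kit-Gr1- cells and at 4.48, 4.81, 4.64 and 4.90 in Kit+Gr1- cells. Kit-Gr1- and Kit+Gr1- cells covered the same range and Gr1+ cells lay below both, by 1.22 ± 0.08 against Kit+Gr1- cells, or 2.32-fold lower (limma adjusted p = 0.000167). Rrm1, the large subunit of ribonucleotide reductase, lay at 3.43 and 4.08 in Gr1+ cells, at 4.51, 4.64 and 4.67 in Kit-Gr1- cells and at 4.67, 5.0, 4.80 and 4.90 in Kit+Gr1- cells (-1.09 ± 0.13, adjusted p = 0.00132). Its partner Rrm2 fell by 0.57 ± 0.16 (adjusted p = 0.0413) and overlapped the Kit+Gr1- range. Tk1, the thymidine kinase of the salvage pathway, fell by 0.84 ± 0.15.

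The 2 kept Gr1+ arrays were unequal. Gr1+ 1 was the lowest kept sorted array for 34 members and Gr1+ 2 for Orc2, Orc4, Pold2 and Rfc2. The median level of the members was 2.23 on Gr1+ 1 and 2.72 on Gr1+ 2. On slide 2 alone Cdc45 and Rfc1 were not lower. Without Gr1+ 1 the member median was -0.56, with 36 of 38 below 0. Without Gr1+ 2 it was -0.95, with 38 of 38 below 0. The compressed array Gr1+ 3 was not in the fit, and set against Sca1hi 2 on its own slide it was lower for 35 of 38 members (median -0.58, while the median over all genes was 0.31 and 35.7% were lower). With all 14 arrays 1 member was called, Pold2, and 843 of 32475 genes. With only unfractionated 1 left out, 27 members and 4922 of 31286 genes were called.

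**Figure D3:**
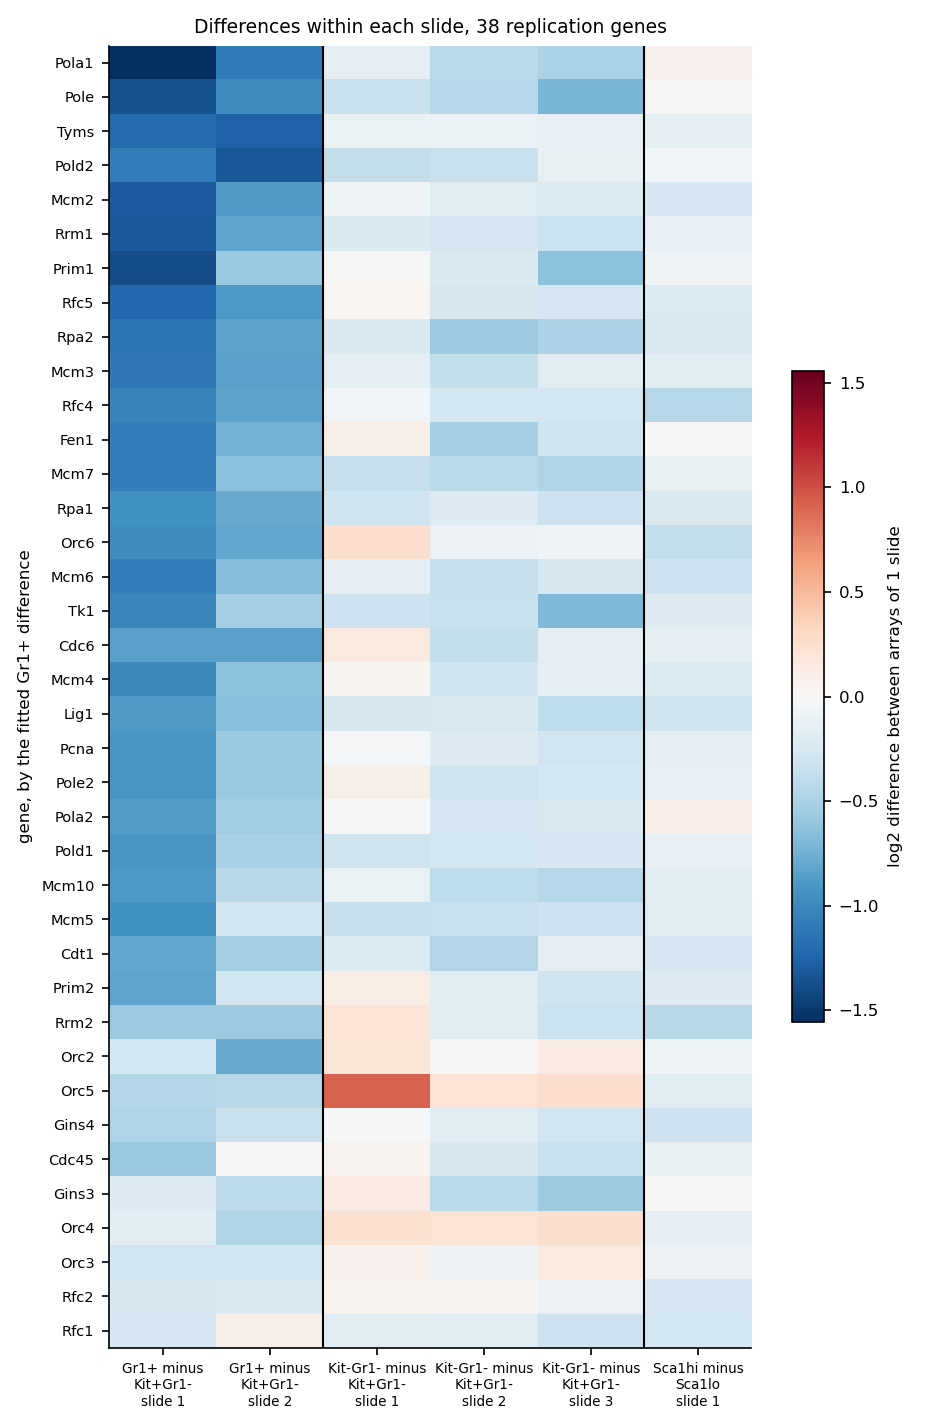
Heat map of log2 differences between arrays that shared a slide (columns) for the 38 measured replication genes (rows, ordered by the fitted Gr1+ difference); blue is lower in the first-named fraction. Both Gr1+ columns are blue for 36 genes and slide 1 is the darker, while the Kit-Gr1- columns are pale and most of their red squares are on slide 1.

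In Kit-Gr1- cells, which carried the higher red cell signal, most replication genes lay slightly below Kit+Gr1- cells without passing the test. Of the 38 members, none was called (limma), against 2.92% of all genes in either direction. At an unadjusted p under 0.05 there were 14 members (36.8%), against 15.8% of all genes, and this count was unstable. It was 24 without Kit-Gr1- 1, 7 without Kit-Gr1- 2 or Sca1hi 1, 5 without Sca1lo 1, and 4 without Kit-Gr1- 3 or Sca1hi 2. In each of these last cases 12.4% of all genes passed that level, a larger share than 4 of 38 members. It was also 5 without the slide block and 4 with the deposited values. The median difference was -0.21, with a median over all genes of -0.04, and 32 members lay below 0 (59% of all genes). Separately by direction, 1.14% of all genes were called lower and 1.79% higher. On all 3 slides 21 members were lower (23.1% of all genes), with slide medians of -0.03, -0.26 and -0.28, and 9 members did not overlap with Kit+Gr1- cells on the lower side (4.81% of all genes): Mcm5, Mcm7, Pola1, Pole, Lig1, Rpa1, Rpa2, Rrm1 and Tk1.

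The members nearest the threshold were Pole and Mcm7. Pole was -0.50 ± 0.11 (adjusted p = 0.0698) and lower on each slide, by 0.34, 0.44 and 0.72. Mcm7 lay at 4.86, 4.82 and 4.98 in Kit-Gr1- cells and at 5.16, 5.44, 5.27 and 5.23 in Kit+Gr1- cells, without overlap (-0.42 ± 0.11, adjusted p = 0.0918). Both were called when the background was corrected by normexp, or when either Gr1+ array was left out of the shared fit. Tk1 lay at 2.64, 2.81 and 2.61 in Kit-Gr1- cells and at 2.87, 3.30, 3.06 and 3.16 in Kit+Gr1- cells, again without overlap (-0.46 ± 0.13, adjusted p = 0.133). Rpa2 was at -0.42 ± 0.13 and Rpa1 at -0.29 ± 0.09, with adjusted p of 0.146 and 0.15. Lig1 lay at 4.82, 4.90 and 4.91 in Kit-Gr1- cells and at 4.91, 5.30, 5.22 and 5.14 in Kit+Gr1- cells (-0.30 ± 0.10, adjusted p = 0.184), and Pold1 at 3.73, 3.84 and 4.07 in Kit-Gr1- cells, against 3.97, 4.33, 4.10 and 4.12 in Kit+Gr1- cells (-0.30 ± 0.10, adjusted p = 0.19).

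The origin recognition genes were not lower in Kit-Gr1- cells. All 5 measured subunits lay above 0 (11995 of all 29240 genes), with a median of 0.14, and none passed the test. Orc3 and Orc6 were near 0, at 0.04 ± 0.08 and 0.05 ± 0.12. Only 3 of the 5 were higher on every slide (4538 of all genes). Orc5 lay at -1.17, -1.44 and -1.47 in Kit-Gr1- cells and at -2.18, -1.73, -1.99 and -1.66 in Kit+Gr1- cells, the 1 member without overlap on the higher side (4.91% of all genes), with the same direction on all 3 slides (0.50 ± 0.17, adjusted p = 0.197). Orc4 lay at 1.09, 1.32 and 1.39 in Kit-Gr1- cells and at 0.78, 1.13, 0.92 and 1.11 in Kit+Gr1- cells (0.24 ± 0.09, adjusted p = 0.259). The 3 probes of Orc4 disagreed, 1 of them giving -0.14 and another 0.23.

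Set against Gr1+ cells directly, Kit-Gr1- cells had the higher replication transcripts. Here 22 of 38 members were called higher and none lower, against 12% of all genes called higher and 7.8% lower. The median was 0.59 (-0.03 over all genes), and 37 members lay above 0, the exception being Rfc1 at -0.13. The 3 Kit-Gr1- arrays lay above both Gr1+ arrays for 30 members (20.4% of all genes). On both slides 34 were higher (29.3%), and slide medians were 0.88 and 0.34. This contrast shares its arrays with the others, so it is not a separate source.

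Tyms was higher by 1.11 ± 0.09 (limma adjusted p = 0.000333), Pola1 by 1.02 ± 0.17, Mcm2 by 0.93 ± 0.15, Orc6 by 0.92 ± 0.15 and Rfc5 by 0.92 ± 0.15. Pold2, Rrm1 and Mcm3 were higher by 0.87 ± 0.12, 0.81 ± 0.14 and 0.72 ± 0.13. By role, 4 of 5 origin recognition genes, 5 of 6 MCM2-7 genes, both RPA genes and none of the 4 measured helicase activation genes were called. Without Gr1+ 1 the member median was 0.36, with 3 of 38 below 0. Kit-Gr1- 3 was also set against a compressed array, Gr1+ 3, on slide 3. There Gr1+ 3 was lower for 35 of 38 members (median -0.30) and for 38.3% of all genes (median 0.24). Compression and fraction cannot be told apart in this pair.

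Within Kit+Gr1- cells, no replication gene passed the test between Sca1hi and Sca1lo cells. None of all 29240 genes was called (0%, limma), with 1228 genes (4.2%) and 0 members at an unadjusted p under 0.05. The 38 differences were small, from -0.25 to 0.20 with a median of -0.10 (-0.03 over all genes), and 31 lay below 0 (57.5% of all genes). Red cell genes lay on the same side: 8 of 9 were below 0, with a median of -1.22, none called and 5 at an unadjusted p under 0.05. Their summed signal was nevertheless 210.9 to 271.1 in Sca1hi cells and 180.8 to 220.4 in Sca1lo cells. Their part in the result was not tested. The member with the smallest p was Rfc4, at 3.22 and 3.42 in Sca1hi cells and 3.67 and 3.57 in Sca1lo cells, which do not overlap (-0.25 ± 0.17, adjusted p = 1). Cdt1 lay at 4.34 and 4.55 in Sca1hi cells and at 4.60 and 4.81 in Sca1lo cells (-0.22 ± 0.16).

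The next in order were Orc6, Mcm6, Rrm2, Rfc2, Orc3 and Orc4, from -0.22 to -0.13. Rrm2 lay at 1.53 and 2.06 in Sca1hi cells and at 1.96 and 2.31 in Sca1lo cells (-0.21 ± 0.20), Rfc2 at 5.78 and 6.08 in Sca1hi against 6.04 and 5.89 in Sca1lo cells (-0.13 ± 0.12), and Orc3 at 1.66 and 1.64 in Sca1hi against 1.74 and 1.76 in Sca1lo cells (-0.13 ± 0.12). Sca1hi lay below Sca1lo without overlap for 6 members (10.3% of all genes): Orc3, Orc6, Cdt1, Mcm4, Mcm6 and Rfc4. For Orc3 and Orc4 the other probes had the opposite sign, at 0.13 and 0.08 for Orc3 and 0.07 and 0.14 for Orc4, so neither has a settled direction here. With 2 arrays in each group, differences of this size could not be resolved. The compressed pair on slide 4 gave a larger value, Sca1hi 3 minus Sca1lo 3 having a median of -0.68 over the members, with 37 of 38 lower, and a median over all genes of 0.00. Sca1hi 3 was the more compressed array (interquartile range 2.38 against 3.42), so compression and fraction cannot be told apart here.

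By slide-adjusted means, Gr1+ was lowest for 37 of 38 members, Rfc1 excepted, and Kit-Gr1- stood between Gr1+ and the Kit+Gr1- mean for 31. Sca1lo was highest for 28 members, Sca1hi for Cdc45, Gins3, Pola1, Pola2, Prim1, Pole and Tk1, and Kit-Gr1- for Orc2, Orc4 and Orc5. The same order was not counted over all genes, so these counts do not show it to be particular to the members. Between the neighbours Sca1hi and Sca1lo no member passed the test, nor did any between Kit-Gr1- and Kit+Gr1- cells.

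The 1 kept array of unfractionated cells had a median member level of 2.87, against 2.23 and 2.72 on the Gr1+ arrays, 2.92 to 2.99 on the Kit-Gr1- arrays and 3.04 to 3.37 on the Kit+Gr1- arrays. For Pola1 it read 1.64, for Mcm2 3.26 and for Tyms 4.32, all below every kept Kit-Gr1- and Kit+Gr1- array and above both kept Gr1+ arrays. Not all members stood so. Orc3 read 1.34, below both Gr1+ arrays (1.40 and 1.48), and Cdc45 1.39, above the Kit-Gr1- arrays (1.02 to 1.28). Members were not counted by this position. Its summed neutrophil signal was 1429, within the range of the Gr1+ arrays. With 1 array there was no test.

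Other genes of the pathway moved with the members in Gr1+ cells. Of 45 measured genes with further roles at the fork, 35 fell and 1 rose (median -0.69). Nasp, a histone chaperone, fell by 1.24 ± 0.12 (limma adjusted p = 0.000475), Ung, which removes uracil from DNA, by 1.24 ± 0.14, Top2a, topoisomerase II alpha, by 1.19 ± 0.16, and Dscc1, a subunit of an alternative clamp loader, by 1.14 ± 0.21. The gene that rose, singled out after its value was seen, was Pold4, the small subunit of polymerase delta. It lay at 1.97 and 2.05 in Gr1+ cells, at 1.19, 1.60 and 1.80 in Kit-Gr1- cells and at 0.86, 1.41, 0.98 and 1.15 in Kit+Gr1- cells (0.99 ± 0.11, adjusted p = 0.000943), so within the same enzyme the Pold1 and Pold2 probes fell and the Pold4 probe rose.

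Regulators of S phase entry were mixed. Of 25 measured E2F, Rb and cyclin genes, 12 fell and 3 rose in Gr1+ against Kit+Gr1- cells (median -0.57). E2f7, a repressor of the family, fell by 1.29 ± 0.19 (limma adjusted p = 0.00304) and Fbxo5, an inhibitor of the anaphase-promoting complex, by 1.03 ± 0.18. E2f2, an activator of the family, rose by 1.12 ± 0.15, with levels of 2.52 and 3.23 in Gr1+ cells and 1.39, 1.69, 1.61 and 1.84 in Kit+Gr1- cells. Ccnd3, cyclin D3, rose by 1.03 ± 0.09, and Rb1, which binds E2F factors and is named after its value was seen, by 0.52 ± 0.13. Of 20 mitosis genes 12 fell (median -0.61), among them Cenpa, Espl1, Ccnb2 and Bub1b, at -0.89, -0.88, -0.82 and -0.79.

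**Figure D4:**
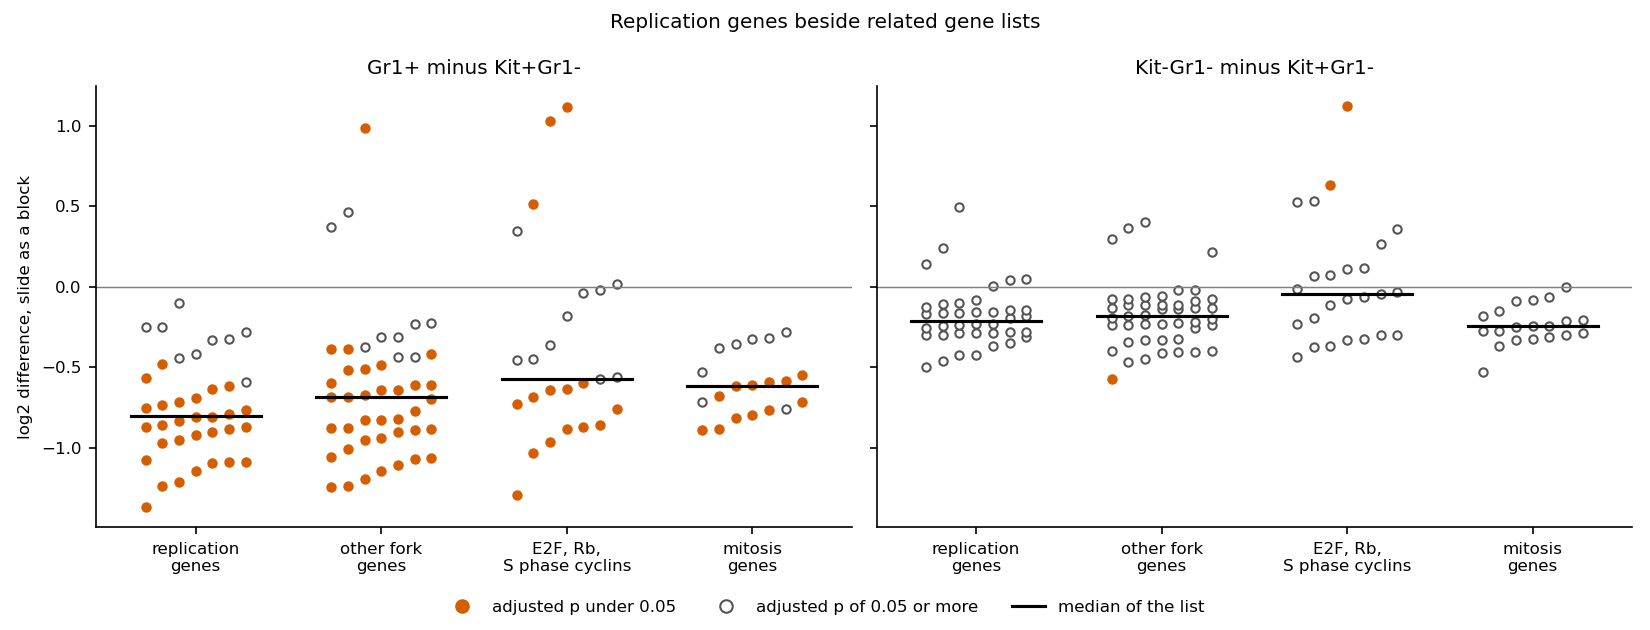
Log2 differences (y axis) of the 38 measured replication genes beside 45 other fork genes, 25 E2F, Rb and cyclin genes and 20 mitosis genes, for Gr1+ (left) and Kit-Gr1- cells (right) against Kit+Gr1- cells; filled points passed an adjusted p under 0.05 and lines are medians. In Gr1+ cells all 4 medians lie between -0.57 and -0.80, and in Kit-Gr1- cells between -0.04 and -0.25.

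In Kit-Gr1- against Kit+Gr1- cells, 3 genes of these lists were called. Rb1 lay at 2.39, 2.07 and 2.25 in Kit-Gr1- cells and at 0.88, 1.17, 1.21 and 1.19 in Kit+Gr1- cells, without overlap (1.12 ± 0.11, limma adjusted p = 0.00409). Ccnd3 rose by 0.63 ± 0.08 (adjusted p = 0.01), and Shmt1, a folate enzyme that feeds thymidylate synthesis, fell by 0.57 ± 0.11 (adjusted p = 0.0429). No mitosis gene was called, with 7 of 20 at an unadjusted p under 0.05. Espl1 was at -0.53 ± 0.12 (adjusted p = 0.0689) and Nusap1 at -0.37 ± 0.18.

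Kit-Gr1- against Gr1+ cells gave 17 fork genes called higher and Pold4 lower, 10 genes of E2F, Rb and S phase cyclins higher and E2f2 and Ccnd3 lower, and 3 mitosis genes higher. Ung, Nasp, Tipin and Dut led the fork genes, at 1.01, 1.00, 0.93 and 0.90. E2f4, at 0.97 ± 0.13, led the E2F list, ahead of E2f7, Ccne2 and Fbxo5 at 0.86, 0.81 and 0.73. The mitosis genes were Cenpa, Ccnb1 and Tpx2, at 0.89, 0.68 and 0.44. In Sca1hi against Sca1lo cells no gene of these lists was called. The 20 mitosis genes all lay above 0 there (median 0.20), led by Nusap1 at 0.61 ± 0.27 and Ccnb2 at 0.53 ± 0.23, while Top2a was at 0.44 and Ung at -0.42, and Ccne1 and E2f8 were at -0.34 and -0.26.

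Members with and without the E2F-like octamer covered nearly the same range of differences, as a description with no test. In Gr1+ against Kit+Gr1- cells the 12 members with an octamer in the window had a median of -0.77 (-1.37 to -0.25) and 10 were called. The 21 members with a window and no octamer had a median of -0.87 (-1.22 to -0.10) and 17 were called. Among the printed stretches, the octamer of Pola1 belongs to the member with the largest difference and those of Orc3 and Gins3 to members that did not pass.

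Markers of granulocytes rose in Gr1+ cells, where the replication genes fell. Beside the 10 neutrophil genes, 4 of 5 eosinophil, 4 of 6 mast cell and basophil, and 2 of 3 macrophage genes rose in Gr1+ cells. Summed eosinophil signal was 107.9 to 283.0 in Gr1+ cells and 0.479 to 3.29 in Kit+Gr1- cells, and summed macrophage signal was 29.2 to 33.9 in Gr1+ cells and 2.29 to 3.00 in Kit+Gr1- cells. Of 8 lymphoid genes 1 rose and 1 fell, and none of 5 stromal genes was called. Summed signal of the red cell genes was 38.6 to 103.5 in Gr1+ cells. In Kit-Gr1- against Kit+Gr1- cells, all 6 mast cell and basophil genes lay above 0 (0.00 to 2.11, median 0.70). Of these 1 was called, against 1.79% of all genes called higher. Their summed signal was 121 to 285.1 in Kit-Gr1- cells, 70.1 to 180.9 in Kit+Gr1- cells and 352.7 to 422.1 in Gr1+ cells. The part of these cells in the replication gene differences was not tested.

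**Figure D5:**
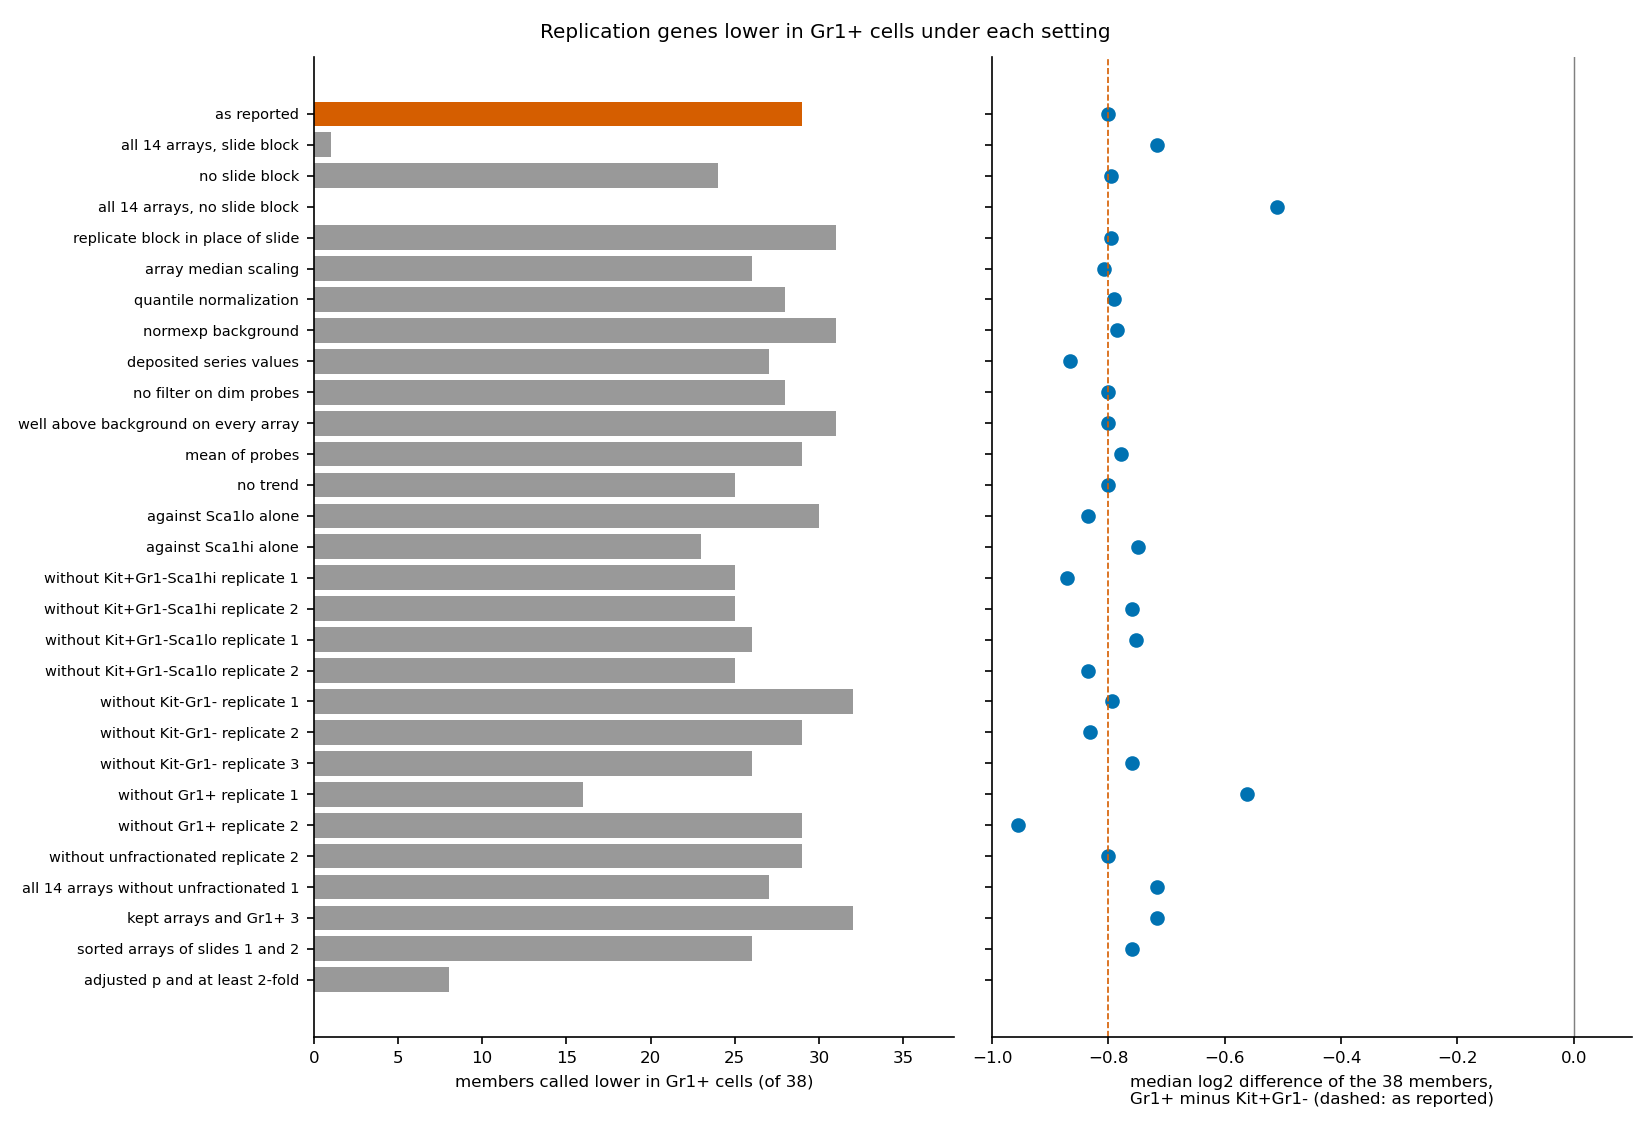
Number of the 38 members called lower in Gr1+ against Kit+Gr1- cells (left, bars from 0) and their median log2 difference (right) under each setting, with the reported setting in orange. The median stays below 0 in every setting that has one, from -0.95 to -0.51, while the count falls to 1 and 0 when all 14 arrays are used and to 16 without Gr1+ 1.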

How the data were processed

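Intensities were used from the deposited scanner files, which per the file headers were made with Agilent Feature Extraction 10.1.1.1 and hold a background-subtracted processed signal for each spot. The deposited series table holds log2 values that equal the log2 processed signal within 5e-09. The headers name build mm8, so no coordinates were taken from the array. Control spots were dropped, and spots of 1 probe were averaged. Symbols came from RefSeq accessions, which named 23374 of 41174 probes. Log2 signals were scaled to the 75th percentile of each array, and probes were kept where 3 or more of the 10 kept arrays had them well above background. The brightest kept probe stood for its gene.

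All groups entered 1 limma fit (limma 3.58.1, R 4.3.3, eBayes with trend, two-sided) with slide as a fixed block, with 3 residual and 4.23 prior degrees of freedom. The code of the fit was run on simulated data as a check, whose values are not reported here. Kit+Gr1- is the mean of the Sca1hi and Sca1lo coefficients. The planned normexp alternative used the spot median signal, since the files hold no spot mean. Tables and figures used Python 3.11.15, pandas 2.3.3 and matplotlib 3.10.9.

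Members are all accounted for. Levels on the kept arrays of the fractions compared were given for the 8 members with the smallest p in each comparison and the leading member of each role, and from each related list up to 4 called genes were named, or 2 where none was called. Pold4, Rb1 and the E2F-list and fork genes lower in Kit-Gr1- than in Gr1+ cells fall outside this rule and were named after their values were seen. The members, lists and rules were chosen with earlier results of these data known.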

Additional observations from a re-analysis of the deposited data

How the results depend on the processing

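The member medians kept their sign in every setting tried except Sca1hi against Sca1lo. That median was 0.06 without Sca1hi 1 and 0.03 with the deposited values. The settings that use all 14 arrays changed most: with the slide block, genes called were 843 for Gr1+ against Kit+Gr1- cells (6874 as reported), 21 for Kit-Gr1- against Kit+Gr1- cells (855) and 700 for Kit-Gr1- against Gr1+ cells (5796), with 1, 0 and 0 members. Without the slide block they were 654, 21 and 498, with 0 members in each and a Gr1+ member median of -0.51. There the Kit-Gr1- against Kit+Gr1- member median kept its sign but was only -0.01, against -0.21 as reported. On the 10 kept arrays without the slide block the genes were 4125, 153 and 3400. The Sca1hi against Sca1lo member median was -0.54 with all 14 arrays and the slide block.

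Settings chosen after seeing the data gave the following for Kit-Gr1- against Kit+Gr1- cells: 248 genes with only unfractionated 1 left out, 499 with Gr1+ 3 added and 362 on slides 1 and 2. With only unfractionated 1 left out, 13 members and 4074 of 31286 genes were called in Kit-Gr1- against Gr1+ cells. In that setting the Sca1hi against Sca1lo member median was -0.32. Other counts for Kit-Gr1- against Kit+Gr1- cells were 265 without the trend, 100 against Sca1lo alone and 329 with a 2-fold minimum, and normexp called 2 members, Pole and Mcm7. With that minimum, 2172 genes and 8 members were called in Gr1+ against Kit+Gr1- cells, and 1991 genes and 2 members in Kit-Gr1- against Gr1+ cells. Sca1hi against Sca1lo calls, 0 as reported, were 1 with median scaling, 2 with normexp, 3 with the deposited values, 3 with probes above background on every array, 3 with only unfractionated 1 left out, 2 with Gr1+ 3 added and 67 on slides 1 and 2.

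A replicate block in place of the slide gave 6630 genes and 31 members for Gr1+ against Kit+Gr1- cells, 454 and 0 for Kit-Gr1- against Kit+Gr1- cells, 4466 and 23 for Kit-Gr1- against Gr1+ cells, and 1 and 0 for Sca1hi against Sca1lo cells. Deviations of same-numbered arrays from their group means had correlations of 0.06 to 0.58 (median 0.49) over 12 pairs, against a median of -0.47 over 18 pairs of different number, and 7 of 9 arrays correlated best with their own number. In a group with only a pair of kept arrays the deviations mirror each other, so the negative median is not separate evidence. All sorted arrays numbered 1 also shared slide 1. No pairing by number can be read from these values. The labels give the numbers no meaning, so the numbers were not used as the main block. The lowest pair was 0.06 by number and 0.08 by slide, so these values do not choose between number and slide. Arrays on the same slide had the same median, 0.49 over 10 pairs.

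Leaving out 1 array at a time gave 4054 to 7338 genes, 16 to 32 members and a member median of -0.95 to -0.56 for Gr1+ against Kit+Gr1- cells, the 16 without Gr1+ 1. For Kit-Gr1- against Kit+Gr1- cells it gave 255 (without Sca1lo 1) to 1322 genes (without Gr1+ 1), 0 to 2 members and a median of -0.32 to -0.12. For Kit-Gr1- against Gr1+ cells it gave 3969 to 5783 genes, 10 (without Gr1+ 1) to 28 members and a median of 0.36 to 0.78. For Sca1hi against Sca1lo cells it gave 0 to 59 genes (59 without Sca1hi 2), 0 members and a median of -0.14 to 0.06.

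Over the 72 named gene results, 1878 alternative values were computed. Of these, 1647 kept direction and side of the threshold, 215 no longer passed and 8 newly passed. A further 8 changed direction without a call in either fit, and 0 changed direction with a call in either. The cause of these changes was not tested. Precision is limited by 2 to 4 arrays a group, and a lone array left after dropping its partner is assumed to vary like the other groups.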
